A study of Mus musculus with 2 samples.

Results

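The genes Hapln1, Matn1, Matn3 and Comp encode non-collagenous proteins of the cartilage matrix, and the data give the positions at which the transcription factors SOX6 and SOX9 were called as bound around them in mouse rib chondrocytes. The members were all called peaks whose centre lay in a fixed window around each gene on the mouse genome build mm9. The windows were chr13:89640000-89800000 for Hapln1 (160 kb), chr4:130470000-130530000 for Matn1 (60 kb), chr12:8900000-9000000 for Matn3 (100 kb) and chr8:72870000-72925000 for Comp (55 kb). They held 84 peaks of the 102972 in the series, made up of 66 of 79107 Sox6 peaks and 18 of 23865 Sox9 peaks.

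The Sox6 peaks came from 1 chromatin immunoprecipitation library (ChIP-seq, sequencing of DNA fragments recovered with an antibody to the bound protein), made with an anti-Sox6 antibody from untreated primary rib chondrocytes of wild-type ICR mice at postnatal day 1. The dissection kept proliferative and prehypertrophic cartilage and left out mature hypertrophic cartilage. A matching input DNA library, for which no antibody was used, was not analysed here. The Sox9 peaks were derived again by the submitters from 2 earlier samples of mouse primary rib chondrocytes, with peaks called as for Sox6, and the sources used here do not give the strain and age of those animals. With a single list per factor there were no replicates, so the values carry no replicate error and no difference was tested. Intervals are 95% exact intervals that cover counting error only and treat peaks as independent, which neighbouring peaks are not. The lists hold positions without read counts or scores, so sequencing depth is unknown. The Sox9 data were made separately, and the factor cannot be told apart from the antibody, the animals or the depth where the lists differ.

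SOX9, a transcription factor with an HMG box, is needed for cartilage to form, and SOX6, together with its relative SOX5, acts beside it on genes of the cartilage matrix. Hapln1 encodes link protein, which holds aggrecan on hyaluronan and so stabilises the large proteoglycan aggregates of cartilage. Matn1 and Matn3 encode matrilins, adaptor proteins with von Willebrand factor A domains that form filaments and join collagen fibrils to proteoglycans. Comp encodes cartilage oligomeric matrix protein, a member of the thrombospondin family that binds collagens and matrilins. Mutations in MATN3 and in COMP cause multiple epiphyseal dysplasia in humans.

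Peaks of both factors were denser around Hapln1, Matn3 and Comp than over the autosomes, while Matn1 had a Sox6 density 2.06 times that of the autosomes (0.561 to 5.27) and no Sox9 peak. The 4 windows together held 17.6 Sox6 peaks per 100 kb (13.6 to 22.4), against 3.24 per 100 kb over the autosomes, each measured across the range its peaks span, a ratio of 5.44 (4.20 to 6.92). For Sox9 they held 4.80 peaks per 100 kb (2.84 to 7.59), against 0.986 over the autosomes, a ratio of 4.87 (2.88 to 7.69). The immediate surroundings were also denser than the autosomes. Set against both flanks of each window, each flank as long as the window, the ratio was 3 for Sox6 and 1.5 for Sox9. No interval was computed for these 2 ratios. For Sox9 the density intervals of Matn1, Matn3 and Comp held the density of their flanks, and that of Hapln1 (2.57 to 10.7) began just above its flanks at 2.50. For Sox6 only the Matn1 interval held the density of its flanks.

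Comp had the highest density of either factor and Matn1 the lowest. In the Comp window 13 Sox6 peaks gave 23.6 per 100 kb (12.6 to 40.4), and 5 Sox9 peaks gave 9.09 (2.95 to 21.2). When the autosomes were laid out in tiles of the length of the Comp window, 0.891% of 43659 tiles held at least 13 Sox6 peaks and 1.6% of 43526 tiles held at least 5 Sox9 peaks. Many of these tiles were empty, as 47.7% held no Sox6 peak and 71.2% no Sox9 peak. The windows were chosen with earlier results of these data known, so the tile shares here describe them and test nothing. Matn3 followed with 19 Sox6 peaks, or 19.0 per 100 kb (11.4 to 29.7), a number that 1.17% of tiles of its length reached. Its 4 Sox9 peaks gave 4.00 per 100 kb (1.09 to 10.2) and were reached by 8.26% of tiles. The Hapln1 window had 30 Sox6 peaks, or 18.8 per 100 kb (12.7 to 26.8), and 9 Sox9 peaks, or 5.62 per 100 kb (2.57 to 10.7). These numbers were reached by 0.867% and 2.63% of tiles of its length. Around Matn1 there were 4 Sox6 peaks, or 6.67 per 100 kb (1.82 to 17.1), and no Sox9 peak, as in 69.8% of tiles of that length. A number of 4 or more Sox6 peaks was found in 19.9% of tiles of that length. The intervals of Hapln1, Matn3 and Comp overlapped for either factor, and those of Matn1 overlapped each of them. Overlap of intervals does not show that densities are equal, and the order of the 4 windows was not tested.

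**Figure D1:**
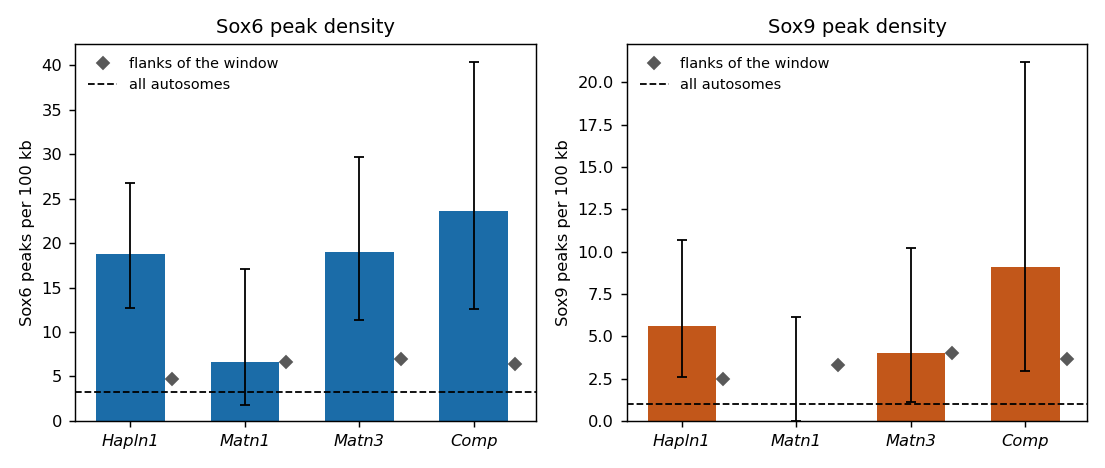
Called peaks per 100 kb in the 4 windows for Sox6 (left) and Sox9 (right). Bars are the windows, error bars 95% exact Poisson intervals for counting error, diamonds the flanks of each window (both flanks together) and the dashed line all autosomes. The Sox6 bars of Hapln1, Matn3 and Comp stand at 18.8, 19.0 and 23.6, above flanks of 4.69, 7 and 6.36, while the Matn1 bar of 6.67 equals its flanks.

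The flanks differed between the loci. Hapln1 had 7 Sox6 peaks in its left flank and 8 in its right flank, and Comp had 3 and 4, fewer on either side than in the window. Matn3 had 10 Sox6 peaks to the left and 4 to the right, and with 3 Sox9 peaks to the left and 5 to the right the Sox9 density of its flanks, 4.00 per 100 kb, equalled that of its window. For Matn1 the left flank alone held 8 Sox6 peaks and 4 Sox9 peaks, more than the window itself, and the right flank held no peak of either factor. In the order of genes on the GRCm38.p6 assembly, Laptm5 comes before Matn1 and Ptpru after it. By the same order Hapln1 lies between Edil3 and Vcan, the gene of the proteoglycan versican. Matn3 lies between Laptm4a and Wdr35, and Comp between Upf1 and Crtc1. That assembly is a different build from the peaks, so peaks were not placed in introns, exons or promoters, and a peak in a window may belong to another gene.

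Sox6 and Sox9 were called on the same sequence at 11 sites: 4 around Hapln1, 3 around Matn3 and 4 around Comp. Peaks of the 2 lists were counted as shared if they had 1 bp or more in common. Of the 66 Sox6 peaks 16.7% (8.62 to 27.9) were shared, against 23.1% of the whole Sox6 list. Of the 18 Sox9 peaks 61.1% (35.7 to 82.7) were shared, against 76.7% of the whole Sox9 list. Both intervals hold the share of the whole list. When the Sox6 list was shortened to its first 23865 peaks, the length of the Sox9 list, the Sox6 share in the windows lay above the background instead. Here 9 of 12 Sox6 peaks were shared (75%, 42.8 to 94.5), against 49.9% of the shortened list, which this interval also holds. With that shortened list 9 of 18 Sox9 peaks were shared (50%, 26.0 to 74.0), against 50.3% of the Sox9 list. By gene, 4 of 13 Sox6 peaks were shared at Comp (30.8%, 9.09 to 61.4), 3 of 19 at Matn3 (15.8%, 3.38 to 39.6) and 4 of 30 at Hapln1 (13.3%, 3.76 to 30.7). None of the 4 Sox6 peaks at Matn1 was shared, with an exact upper bound of 60.2%. The limit of 3 counts that a count of 0 allows gives up to 75%, a rough value for so few peaks. Seen from Sox9, 4 of 5 peaks were shared at Comp (80.0%, 28.4 to 99.5), 3 of 4 at Matn3 (75%, 19.4 to 99.4) and 4 of 9 at Hapln1 (44.4%, 13.7 to 78.8).

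**Figure D2:**
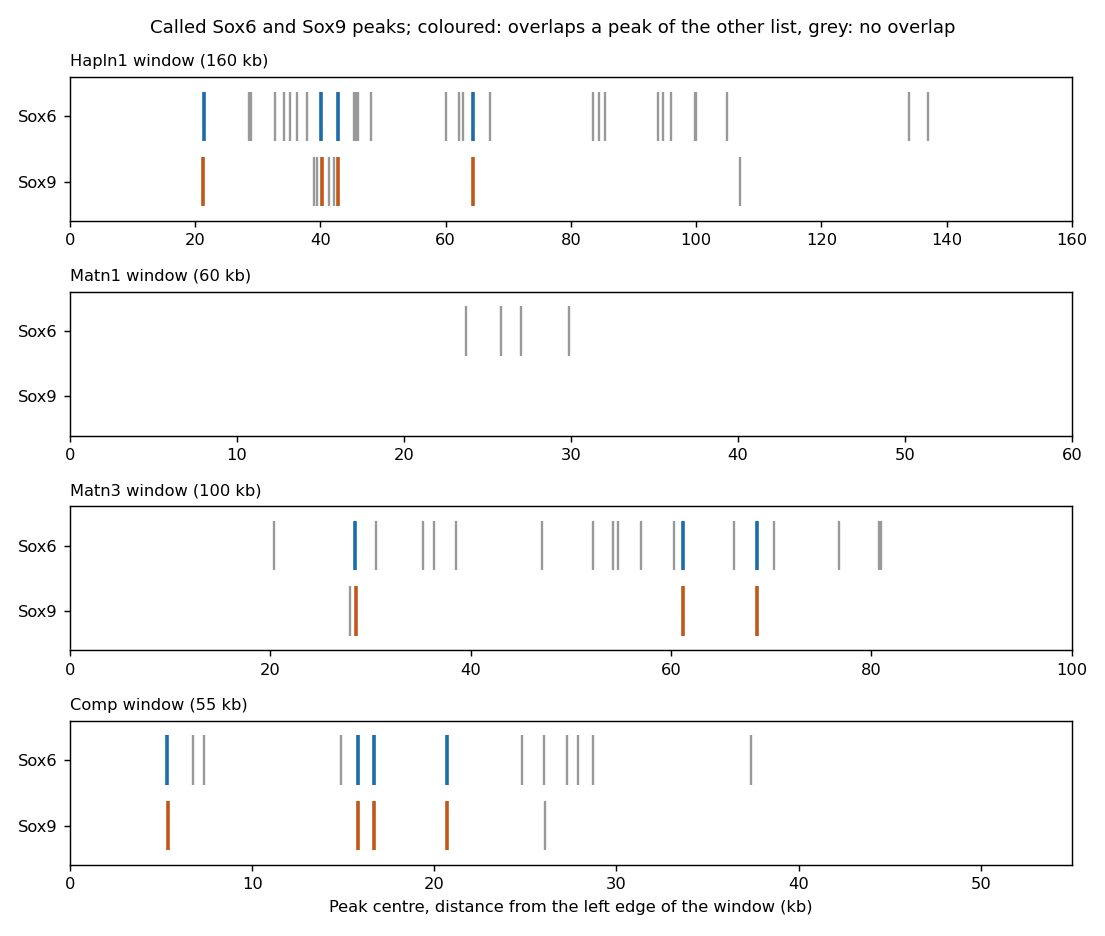
Positions of the 66 Sox6 and 18 Sox9 peaks in the 4 windows, as the distance of the peak centre from the left edge of the window in kb (x axis) for each factor (y axis). Coloured lines are peaks that overlap a peak of the other list, at 11 sites, and grey lines are peaks without overlap. Sox9 peaks are gathered near 40 kb in the Hapln1 window and absent from the Matn1 window.

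Around Hapln1, the link protein gene, 6 of the 9 Sox9 peaks were gathered in a short stretch. All 30 Sox6 peaks spanned 116 kb, and all 9 Sox9 peaks spanned 85.7 kb. The run of 6 Sox9 peaks lay within 4.16 kb, at chr13:89678769-89682932, and 2 Sox6 peaks lay inside it. The run was singled out after its values were seen. Its neighbouring centres were no more than 2000 bp apart, and at that spacing 11 of the 2609 runs of 2 or more peaks in the whole Sox9 list (0.422%) had at least 6. Both Sox6 peaks in the run were shared. The Sox6 peak at chr13:89680082-89680197 overlapped the Sox9 peak at chr13:89680161-89680262 by 37 bp, with centres 72 bp apart. The other, at chr13:89682791-89682802, was only 12 bp wide and lay inside the Sox9 peak at chr13:89682711-89682932.

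The other 4 Sox9 peaks of the run had no Sox6 peak on them, but 3 had a Sox6 centre within 1000 bp. Over the 4 windows 5 of the 7 unshared Sox9 peaks did, against 58.8% of the unshared peaks of the whole Sox9 list. They lay at chr13:89678769-89679043 (985 bp from the nearest Sox6 centre), chr13:89679423-89679488 (684 bp), chr13:89681256-89681394 (1185.5 bp) and chr13:89681983-89682215 (698 bp). Outside the run, 2 Sox9 peaks of the window were shared. One, at chr13:89661243-89661425, overlapped the Sox6 peak at chr13:89661298-89661462 by 128 bp. In the other the centres coincided to 0.5 bp, with the Sox6 peak at chr13:89704289-89704455 inside the Sox9 peak at chr13:89704265-89704480. The last Sox9 peak, at chr13:89746660-89746940, was 1945.5 bp from the nearest Sox6 centre.

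Most Sox6 peaks around Hapln1 had no Sox9 peak near them. From chr13:89706906 to chr13:89744907, over 38 kb, 10 Sox6 peaks followed each other with no Sox9 peak between them. None of the 10 was shared, against 23.1% of the whole Sox6 list. This was the longest such run of the window, and how often such runs occur in the whole list was not counted. A further 2 Sox6 peaks at the right end of the window lay 27118 and 30027 bp from the nearest Sox9 centre. Of the 26 unshared Sox6 peaks, 1 had a Sox9 centre within 1000 bp, against 10.3% of the unshared peaks of the whole Sox6 list. The median spacing of Sox6 centres was 2030 bp, and the widest peak, of 395 bp, was unshared.

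Around Matn1 the 4 Sox6 peaks stood close together and far from Sox9. They lay within 6.40 kb, at chr4:130493604-130493783, chr4:130495710-130495874, chr4:130496886-130497035 and chr4:130499771-130500005, with widths of 150 to 235 bp. The nearest Sox9 centre was between 31345 and 37540 bp away from them, beyond the window. A Sox6 group of this kind without Sox9 was not rare in the lists. Of the 7978 autosomal tiles of the window's length with at least 4 Sox6 peaks, 19.5% held no Sox9 peak.

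Around Matn3, the second matrilin, Sox6 peaks spread over 60.8 kb and the 4 Sox9 peaks stood at 3 places. The Sox6 peak at chr12:8961166-8961291 lay inside the Sox9 peak at chr12:8961107-8961337, with centres 6.5 bp apart. Likewise the Sox6 peak at chr12:8968534-8968705 lay inside the Sox9 peak at chr12:8968454-8968729, with centres 28.0 bp apart. The third place differed, because the Sox6 peak at chr12:8928395-8928503 overlapped a Sox9 peak of 12 bp, chr12:8928503-8928514, by a single base. A wider Sox9 peak of 238 bp, chr12:8927817-8928054, lay on the other side of the same Sox6 peak, with its centre 514 bp away and no overlap. Between that place and the pair at chr12:8961166-8961291, 10 Sox6 peaks followed each other over 30.0 kb without a Sox9 peak between them. This was the longest such run of the window, and how often such runs occur in the whole list was not counted.

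Among these windows, the peaks of both factors lay closest together around Comp. The median distance of a Sox9 centre to the nearest Sox6 centre was 20 bp at Comp, 43.8 bp at Matn3 and 684 bp at Hapln1. These medians rest on 5, 4 and 9 Sox9 peaks, and the median of the whole Sox9 list was 59.5 bp. All 5 Sox9 peaks at Comp had a Sox6 centre within 250 bp, against 81.1% of the whole Sox9 list, and 4 of them overlapped a Sox6 peak. The pairs were chr8:72875266-72875414 (Sox6) in chr8:72875238-72875482 (Sox9), chr8:72886608-72886732 in chr8:72886555-72886812, and chr8:72890647-72890745 in chr8:72890601-72890781. In each of these 3 the whole Sox6 peak lay inside the Sox9 peak, with centres 5.0 to 20.0 bp apart. In the fourth, chr8:72885799-72885891 (Sox6) and chr8:72885771-72885865 (Sox9) overlapped by 67 bp. The fifth Sox9 peak, chr8:72896102-72896142, was 41 bp wide and lay with its centre 142 bp from a Sox6 centre without overlap. Counting peaks with edges no more than 1000 bp apart, 7 of the 13 Sox6 peaks at Comp (53.8%) met a Sox9 peak, against 32.3% of the whole Sox6 list. The same count gave 5 of 30 (16.7%) at Hapln1, 4 of 19 (21.1%) at Matn3 and 0 of 4 at Matn1. Of the Sox9 peaks, all 5 at Comp, all 4 at Matn3 and 7 of 9 at Hapln1 met a Sox6 peak in this way, against 90.8% of the whole Sox9 list.

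**Figure D3:**
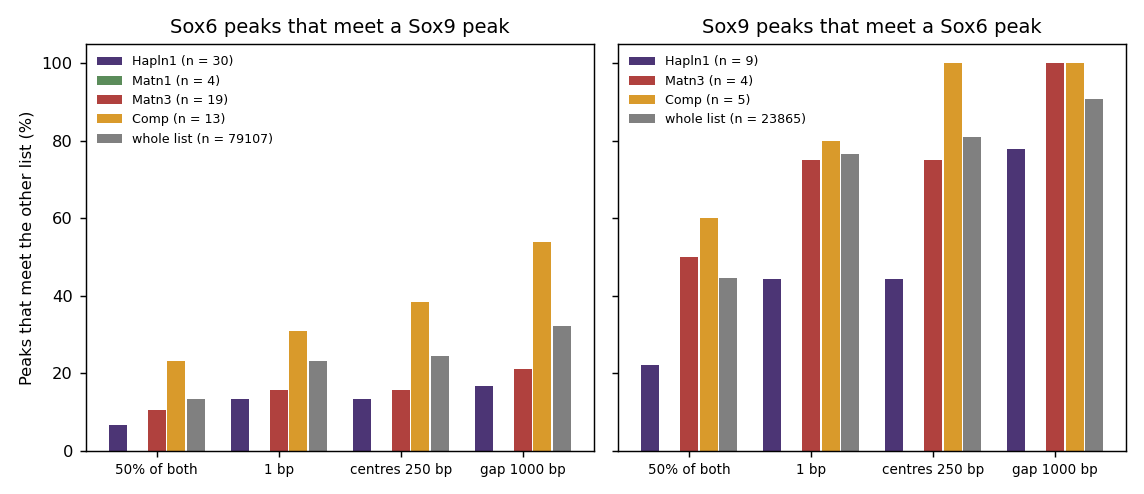
Share of Sox6 peaks that met a Sox9 peak (left) and of Sox9 peaks that met a Sox6 peak (right), in percent, under 4 ways of calling peaks shared, for each window and the whole list. Under each of the 4 ways Comp has the largest Sox6 share of the windows, from 23.1% to 53.8%, and Hapln1 the smallest Sox9 share, from 22.2% to 77.8%; Matn1 is at 0 for Sox6 and has no Sox9 peak.

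Where the peaks overlapped, many Sox6 peaks were contained in the Sox9 peak. Of the 11 pairs, 7 (63.6%, 30.8 to 89.1) had the whole Sox6 peak inside the Sox9 peak, against 31.5% of the 18237 shared peaks of the whole Sox6 list, each taken with its nearest Sox9 peak, a share that the interval holds. The other 4 pairs were staggered. Centres were a median of 25 bp apart (0.5 to 72.0 bp), against a median of 40.0 bp over the whole list, and 9 of the 11 were within 50 bp. Widths bear on containment, and Sox9 peaks had the larger median width in either set. In the 4 windows the median width was 164 bp for Sox6 and 219 bp for Sox9, and in the whole lists 151 bp and 183 bp. The part of width in the containment was not tested.

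The place of a peak in its deposited list is a further measure, which the rule for the windows does not name. The windows were still chosen with earlier results of these data known. The order of the lists is not documented, and places are given as a percentage of the list, with low values for early peaks. Sox6 peaks around these genes ranged from very early to very late places, and the shared ones stood mostly early, at a median of 1.9%, against 64.6% for the unshared ones. Shared peaks of the whole Sox6 list also stood earlier, at a median of 19.4%, against 58.6% for its unshared ones. The median place of all 66 Sox6 peaks in the windows was 59.3%, with 45 of 66 (68.2%) in the last 50% of the list. Even so, 6 of 66 (9.09%) were among the first 5%, and all 6 overlapped a Sox9 peak (100%, 54.1 to 100), against 78.3% of the first 5% of the whole list. Of these 6, the Matn3 peak at chr12:8928395-8928503 overlapped by 1 bp only, and the Hapln1 peak at chr13:89680082-89680197 by 37 bp. After the first 5%, 5 of 60 (8.33%, 2.76 to 18.4) were shared, against 20.1% of the whole list. In the last 50%, 1 of 45 was shared (2.22%, 0.0562 to 11.8), against 8.02%. The interval after the first 5% lies below the share of the whole list, but it treats neighbouring peaks as independent, and the split was made after the values were seen.

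The earliest Sox6 sites were at Matn3. Its single-base overlap at chr12:8928395-8928503 stood at place 174 of 79107, and the other 2 shared Sox6 peaks of Matn3 stood at places 788 and 901. All 3 of its shared Sox6 peaks were thus within the first 1.14% of the list. The first-listed Sox6 peak of Hapln1, chr13:89661298-89661462, stood at place 1286. Next at Hapln1 came chr13:89680082-89680197, one of the Sox6 peaks inside the Sox9 run, at place 1420. At Comp the first was chr8:72875266-72875414 at place 1505. At Matn1 it was chr4:130495710-130495874, only at place 14559, or 18.4% of the list. The last-listed Sox6 peaks were chr13:89687920-89688100 at place 73031, chr4:130499771-130500005 at 72339, chr12:8936217-8936367 at 79071 and chr8:72897782-72898031 at 75392. None of these was shared, and in the last 50% of the whole Sox6 list only 8.02% of peaks were.

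Early places in the 2 lists did not always go together. At Matn3 the Sox9 peaks at chr12:8968454-8968729 and chr12:8961107-8961337 stood at places 277 and 833 of 23865, or 1.16% and 3.49% of their list, and their Sox6 partners stood at 0.996% and 1.14% of theirs. The 12 bp Sox9 peak beside Sox6 place 174 stood at place 15023, or 62.9%. At Comp the earliest Sox9 peak, chr8:72890601-72890781 at place 950 (3.98%), paired with a Sox6 peak at 11.2%, whereas the earliest Sox6 peak, at 1.90%, paired with a Sox9 peak at 25.8%. At Hapln1 no Sox9 peak was in the first 5%, and its earliest, at places 2457 and 2936 (10.3% and 12.3%), were the partners of the earliest Sox6 peaks. Over the 18 Sox9 peaks the median place was 37.5%, with 3 in the first 5%, and these 3 were shared, as were 90.6% of the first 5% of the whole Sox9 list.

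**Figure D4:**
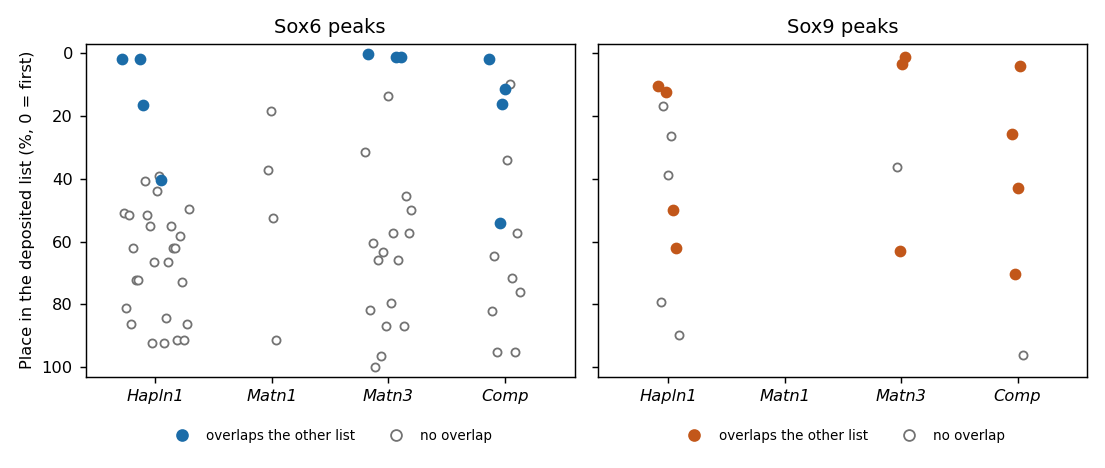
Place of each peak in its deposited list, in percent (y axis, first peaks at the top), by gene for Sox6 (left) and Sox9 (right). Filled points overlap the other list and open points do not. The 6 Sox6 peaks in the first 5% are all filled, and 44 of the 45 in the last 50% are open.

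Promoter sequence was looked at because SOX proteins bind short motifs through the HMG box. RefSeq promoter windows on GRCm38.p6, of 300 bases around a gene's start, were matched for 3 of the 4 members, and Comp was not among them. The motifs ACAAT and ACAAAG were searched on both strands, that is also as ATTGT and CTTTGT, and they do not overlap each other in any of these windows. ACAAT was found in 31% of 32851 promoter windows and ACAAAG in 18.7%, and 42.9% held at least 1 of them. The Hapln1 window held 1 match to ACAAT and none to ACAAAG, and the Matn1 and Matn3 windows held neither. Pairs of matches on opposite strands, not overlapping and no more than 10 bases apart, were in 1.01% of all windows and in none of these. A match in 1 of 3 windows is too small a number to set apart from the 42.9% of all windows. Only exact matches to these motifs were counted, so variants of them would be missed. The bases before each gene's first annotated base are shown 5′ to 3′, with matches in capitals. They cover chr13:89540386-89540528, chr4:130944135-130944384 and chr12:8947679-8947928 of GRCm38.p6, all on the plus strand. These coordinates are not on the build of the peaks, and whether a peak covers any of these bases was not analysed here.
Hapln1: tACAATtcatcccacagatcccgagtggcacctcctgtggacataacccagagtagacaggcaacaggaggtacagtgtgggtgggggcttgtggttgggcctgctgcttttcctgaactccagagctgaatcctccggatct
Matn1: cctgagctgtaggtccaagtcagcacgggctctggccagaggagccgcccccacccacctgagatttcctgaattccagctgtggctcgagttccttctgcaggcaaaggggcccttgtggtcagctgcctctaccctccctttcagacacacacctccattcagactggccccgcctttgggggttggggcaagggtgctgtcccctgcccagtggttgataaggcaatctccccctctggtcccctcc
Matn3: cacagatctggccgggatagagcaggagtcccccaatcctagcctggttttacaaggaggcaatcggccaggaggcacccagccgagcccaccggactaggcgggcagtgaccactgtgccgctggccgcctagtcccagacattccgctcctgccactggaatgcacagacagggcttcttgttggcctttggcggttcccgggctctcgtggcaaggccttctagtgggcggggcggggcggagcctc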

How the data were processed

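The lists deposited by the authors give only a chromosome, a start and an end in bp for each called peak, with no header and no other values. Bowtie and mm9 are named without versions for the Sox6 and input samples, per the submitters' processing notes. The names of both lists bear the mark FDR1, which may refer to a false discovery rate and is not explained. Beyond it, the sources used here give no peak caller, threshold or separate build for Sox9, whose list was read as mm9. Starts were read as counted from 0 and are printed counted from 1. Members are all peaks with their centre in a window, and overlapping neighbours were kept as called. Overlap, centre distances, place in the list and densities were computed with Python 3.11.15, numpy 2.4.6, pandas 2.3.3 and scipy 1.17.1, with exact binomial (Clopper-Pearson) and Poisson intervals. Overlap counting was tested on simulated lists. With 1 list per factor no test between groups was made, and depth is unknown. Positions are printed for every overlapping pair, every Sox9 peak without overlap and the first and last listed Sox6 peak of each window; the 4 Sox6 peaks at Matn1 were all printed. Counts for other matrix genes, planned if an mm9 annotation was at hand, were not made. The members, windows and lists were chosen with earlier results of these data known.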

Additional observations from a re-analysis of the deposited data

How the results depend on the processing

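Of 25 values under alternatives planned at the outset, 18 stayed within the interval of the value reported, or within 1.5 times of it for counts, and 7 moved. With the first 50% of each list, 21 Sox6 peaks remained in the windows and 38.1% of them were shared, against 22.5% over the whole of that part. At equal list lengths 9 of 12 Sox6 peaks were shared (75%), against 49.9% of the first 23865 Sox6 peaks of the series. The Sox6 share in the windows thus lay above that of the list rather than below it, but either interval holds the share of the list. The alternative itself leaves out late-listed peaks. Allowing a gap of up to 1000 bp raised the Sox9 share to 88.9%, against 90.8% of the whole list. Against the flanks the density ratio was 3 for Sox6 and 1.5 for Sox9, since the flanks are denser than the autosomes. These 2 ratios have no interval. Ordered by width, the median place of the Sox6 peaks was 41.3% in place of 59.3%, and the cause was not tested. Leaving out the window of each gene in turn, an alternative chosen after seeing the data, moved 2 of 24 values: without Hapln1, 36 Sox6 and 9 Sox9 peaks were left. No paired analysis was possible because each factor has 1 list. With 18 Sox9 peaks in all, the Sox9 shares have wide intervals, and Sox9 binding at Matn1 below the threshold of the caller cannot be seen.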

Other observations

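Late in the Sox6 list, peaks of the same window stood at almost consecutive places, although the list as a whole is not in genome order. In the Hapln1 window 5 pairs of Sox6 peaks were no more than 5 places apart, including places 72162 and 72163, whose centres were 8823 bp apart, and places 52546 and 52549, 24464 bp apart. Matn3 had 1 such pair (places 51946 and 51950) and Comp 1 (places 75391 and 75392, with centres 13007 bp apart). All 7 pairs stood at or beyond 62.1% of the list. No Sox9 pair of these windows was as close, but the windows hold only 18 Sox9 peaks. In the whole Sox6 list the next peak was within 100000 bp on the same chromosome for 0.114% of places in the first 10% and for 5.03% in the last 10%. The share also rose in the whole Sox9 list, from 0.251% in the first 10% to 2.14% in the last 10%. That count takes directly consecutive places only, so it is not the same measure as pairs up to 5 places apart. Small differences between late places were not read as rank.

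Very narrow peaks occurred among the members of either list. Of the 66 Sox6 peaks 3 were no wider than 25 bp (4.55%), against 0.910% of the whole list, and of the 18 Sox9 peaks 1 was (5.56%), against 0.947%. The limit of 25 bp was not among the planned measures. No interval was computed for these shares, which rest on very few peaks. Of these 4, the Sox6 peak of 12 bp at Hapln1 and the Sox9 peak of 12 bp at Matn3 overlapped a wider peak of the other list. The other 2 were Sox6 peaks of 25 bp at Hapln1 and 16 bp at Comp, both without overlap.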
